A study of Saccharomyces cerevisiae with 3 samples.

Results

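The nuclear genes for proteins of the yeast mitochondrial ribosome were examined in a Saccharomyces cerevisiae strain short of HAL3 and VHS3. They were chosen by name, as listed genes whose RefSeq symbol is MRPL, MRPS, RSM or MRP followed by a number. The rule found 67 genes among the 6212 on the arrays, with 34 MRPL, 9 MRPS, 11 RSM and 13 MRP symbols. RefSeq also gives 65 of them a universal ribosomal protein name, in which L or S stands for the large or small subunit, so the label fits the annotation of nearly every member. By these names and symbols 38 genes encode large subunit proteins and 28 small subunit proteins. MRP8 belongs to neither, being a protein once taken for a ribosomal one from its sequence.

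Total RNA of 2 strains of the JA100 background was compared on 3 DNA arrays with 2 colours. One strain was wild type, and the other, tetO:HAL3 vhs3::URA3, had VHS3 replaced by the URA3 marker and HAL3 behind a tetO promoter that doxycycline turns off. Both strains grew at 28 °C in synthetic complete medium and both received 100 µg/ml doxycycline for 15 h, so the drug itself is common to them. Replicate 1 was hybridised on a pair of arrays with the dyes exchanged (mutant in Cy5, then mutant in Cy3), and replicate 2 on 1 array with the mutant in Cy5. HAL3 and VHS3 encode inhibitory subunits of the phosphatase Ppz1 that also take part in coenzyme A synthesis. The labels call the replicates biological, and the number of mutant clones is not stated.

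Mitochondrial ribosomes make the few proteins encoded by mitochondrial DNA, nearly all of them subunits of the respiratory chain and the ATP synthase. Almost all of their own proteins are encoded in the nucleus, made in the cytosol and imported. In yeast their transcripts are known to rise and fall with growth rate and respiratory need, and many are bound at the 3′ end by the RNA-binding protein Puf3. Some of these proteins have bacterial counterparts, marked u or b in the universal name, and others, marked m, occur in mitochondria alone.

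All values are log2 ratios of mutant over wild type after each array was centred on its median gene, so a change common to all transcripts would not be seen. The deposited table does not state which strain is the numerator. The labelled dyes alone do not give 1 direction for both arrays of the dye-swap pair. Sample titles name wild type first for the arrays with the mutant in Cy5, and the mutant first for the swapped array. The ratios were read as mutant over wild type because in that direction both VHS3 and HAL3 were lower on each array of replicate 1. VHS3, the deleted gene, had values of −2.06 and −2.50 in the dye-swap pair but 0.09 on the array labelled replicate 2, which goes against its label. HAL3, listed as SIS2, gave −1.33, −1.29 and −0.14 on these arrays. The mutant carries URA3 as its marker, yet that gene stood at −1.40, −0.82 and −0.33, lower than the median gene throughout (limma adjusted p = 0.925). Each direction, mean, SD over replicates, interval and p-value that uses the array labelled replicate 2 carries that mismatch. Values are therefore also given array by array. The SD over genes was 0.650 and 0.699 in the dye-swap pair, and 0.353 for the array labelled replicate 2. With 3 arrays and 2 biological replicates, the number of arrays limits every statement on precision, and intensities were not used here.

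Transcripts of the mitochondrial ribosome stood above the median gene on 1 of the 3 arrays and close to it on the other two. Of the 67 genes, 59 had a value in both replicates, or 88.1%, against 74% of all genes listed. On the replicate 1 array with the mutant in Cy5 their median log2 ratio was 0.34, which is 1.27-fold, with an SD over genes of 0.34. On the swapped array of the same replicate the median was 0.04 with an SD of 0.31. On the array labelled replicate 2 it was 0.02 with an SD of 0.25. Averaged over the dye-swap pair the median was 0.19, a value that lies between 2 unlike arrays.

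By counts on either side of the median gene, the first array again stood apart from the other two. Above 0 stood 47 of 57 members (82.5%) on the first array, against 51.2% of all genes with values in both replicates. On the swapped array 33 of 59 (55.9%) did, against 49% of all genes, and on the array labelled replicate 2 it was 34 of 59 (57.6%), against 50.1%. The shares on the last 2 arrays were thus near those of all genes. Below 0 on the array labelled replicate 2 were 25 of 59 members, against 49.8% of all genes. In the replicate 1 average 47 of 59 members (79.7%) were above 0 and 12 below, against 51.8% and 48.2% of all genes. In both replicates 26 of 59 members (44.1%) were above 0 and 4 (6.78%) below, against 26.6% and 24.6% of all genes. This count draws on the replicate 1 average, which contains the first array.

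**Figure D1:**
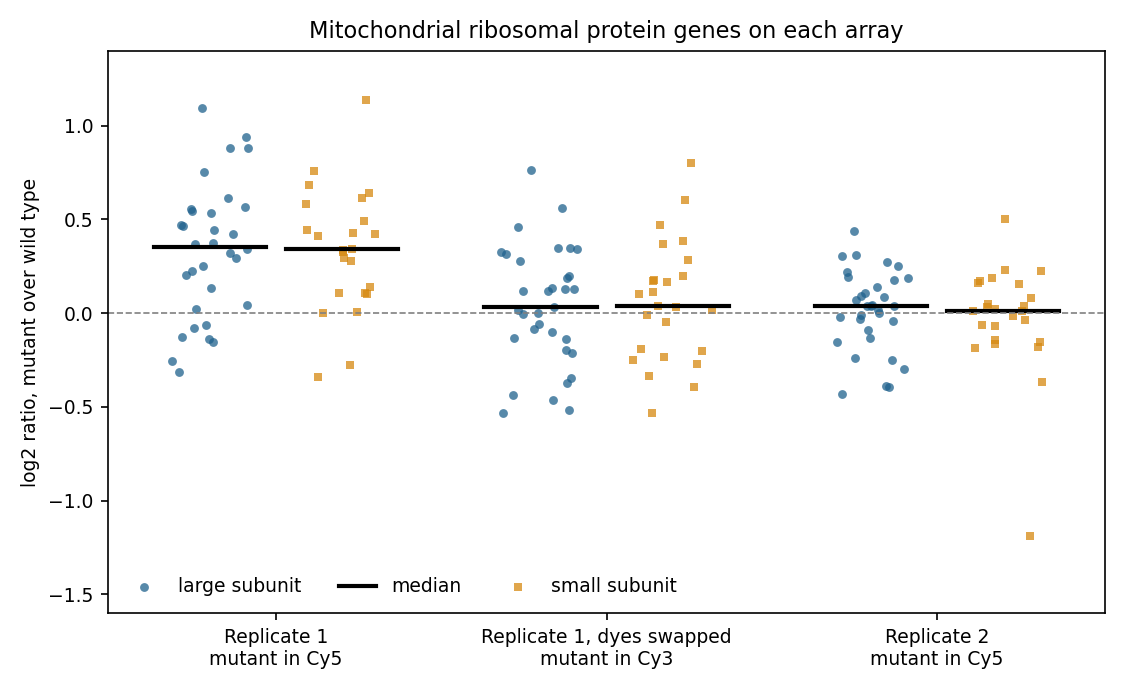
Log2 ratio of mutant over wild type (vertical axis) of each mitochondrial ribosomal protein gene measured in both replicates, for the 3 arrays (horizontal axis), with large subunit genes as circles, small subunit genes as squares and bars at the medians. Medians of the large and small subunit are 0.36 and 0.34 on the first array, 0.03 and 0.04 on the swapped array and 0.04 and 0.01 on the array labelled replicate 2, where MRPS5 lies apart at −1.19.

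None of the members passed the test. The mean of both replicates was tested against 0 with limma over 4598 genes, with the dye-swap pair averaged into 1 replicate. By Benjamini-Hochberg adjusted p under 0.05, limma called 0 of 59 members, and 0 of all genes (a background of 0% higher and 0% lower). At an unadjusted p under 0.05 the same limma fit had 0 members, against 1.39% of all genes higher and 3.44% lower. The smallest adjusted limma p among members was 0.925, shared by several of them, and the smallest unadjusted p was 0.0815, of RSM19. All 59 intervals of the mean (95%, limma) included 0, and their median half-width was 0.53 on the log2 scale, or 1.45-fold. Changes smaller than that could hardly be seen for a single gene in 2 replicates. These intervals are not adjusted for the 4598 genes tested. The adjusted test called no gene at all, although 13 of all genes were at least 2-fold higher in both replicates and 6 at least 2-fold lower. Changes larger than 1.45-fold could thus also go uncalled, and the absence of called members does not exclude them. No member was 2-fold or even 1.5-fold higher in both replicates, or lower in both, while 0.457% of all genes were at least 1.5-fold higher in both and 1.09% lower.

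Large and small subunit genes had similar medians on every array. The median of the large subunit minus that of the small subunit was 0.01 on the first array, −0.01 on the swapped array and 0.03 on the array labelled replicate 2. The 33 large subunit genes had an SD over genes of 0.36, 0.32 and 0.21 on these arrays, and the 25 small subunit genes had 0.33, 0.32 and 0.30, so each of these differences was small beside the spread within a subunit. Averaged over the replicates the difference was 0.0266 ± 0.0007 (SD, n = 2, exact sign-flip permutation test over replicates, two-sided p = 0.5, the smallest that 2 replicates allow). That SD of the averages is small while the dye-swap pair itself differed in sign, so it does not measure how well the difference is known. By symbol alone, MRPL genes minus MRPS and RSM genes gave 0.03, −0.09 and 0.02 on the arrays in the same order.

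In the large subunit, 6 genes were above 0 on all 3 arrays and 1 was below 0 on all 3. MRP49 (YKL167C, mL61), a protein of the mitochondria-specific part, was at 0.94 on the first array, 0.20 on the swapped array and 0.30 on the array labelled replicate 2. Its first value was the highest of its 3, and its mean was the highest in its subunit, at 0.44 ± 0.19 (SD, n = 2, limma adjusted p = 0.925). MRPL33 (YMR286W, uL30m), a counterpart of a bacterial protein, was at 1.09, 0.12 and 0.19. Its first value is 2.13-fold, while the swapped array of the same replicate gave little more than the median gene. Its mean was 0.40 ± 0.29 (SD, n = 2, limma adjusted p = 0.925).

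MRPL27 (YBR282W, mL41), another mitochondria-specific protein, went the other way within the dye-swap pair, at 0.02 and 0.34, and was at 0.22 on the array labelled replicate 2. MRPL40 (YPL173W, uL24m), from a family that lies near the exit of the peptide tunnel in bacterial ribosomes, was at 0.34, 0.28 and 0.04. Both its arrays of replicate 1 were alike and above the array labelled replicate 2. MRPL36 (YBR122C, bL31m), with a bacterial counterpart, was at 0.56, 0.03 and 0.04 and so stood well above the median gene on the first array only. MRPL39 (YML009C, bL33m) was the 1 large subunit gene below 0 throughout, at −0.14, −0.35 and −0.30, with a mean of −0.27 ± 0.04 (SD, n = 2, limma adjusted p = 0.928). These 3 values lie close together, but the interval of the mean ran from −0.79 to 0.25.

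In the small subunit, 8 genes were above 0 on all 3 arrays and 0 below on all 3. Together with the large subunit that makes 14 of 57 members (24.6%) above 0 on all arrays, against 14.5% of all genes, and 1 (1.75%) below 0 on all arrays, against 15.9%. Both counts contain the first array, where 82.5% of members were above 0, against 51.2% of all genes. Across members, Pearson's r was −0.13 between the first and swapped arrays. With the array labelled replicate 2 it was 0.08 for the first array and −0.08 for the swapped one. The counts therefore do not show that members kept their values from array to array. RSM19 (YNR037C, uS19m), a protein of the small subunit head in bacterial ribosomes, was at 0.76 on the first array, 0.04 on the swapped array and 0.50 on the array labelled replicate 2. It had the highest mean of all members, 0.45 ± 0.07 (SD, n = 2, limma adjusted p = 0.925), a value that 221 other genes exceeded. The small SD rests on the average of 2 unlike arrays, and without the first array the mean would rest on 0.04 and 0.50.

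RSM18 (YER050C, bS18m), with a bacterial counterpart, was at 0.62, 0.47 and 0.16, so its dye-swap pair gave similar values. Its mean was 0.35 ± 0.27 (SD, n = 2, limma adjusted p = 0.925). MRP10 (YDL045W-A, mS37), a small cysteine-rich protein that is oxidised on import, was at 0.49, 0.29 and 0.23. MRPS9 (YBR146W, uS9m), whose bacterial counterpart reaches the decoding site, was at 0.34, 0.39 and 0.23, the most even of these 5 genes. RSM26 (YJR101W, mS42), a mitochondria-specific protein related to superoxide dismutases, was at 0.41, 0.17 and 0.17. The means of the last 3 were 0.31 ± 0.11, 0.29 ± 0.10 and 0.23 ± 0.09 (SD, n = 2). None of them passed the test, and their intervals included 0.

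**Figure D2:**
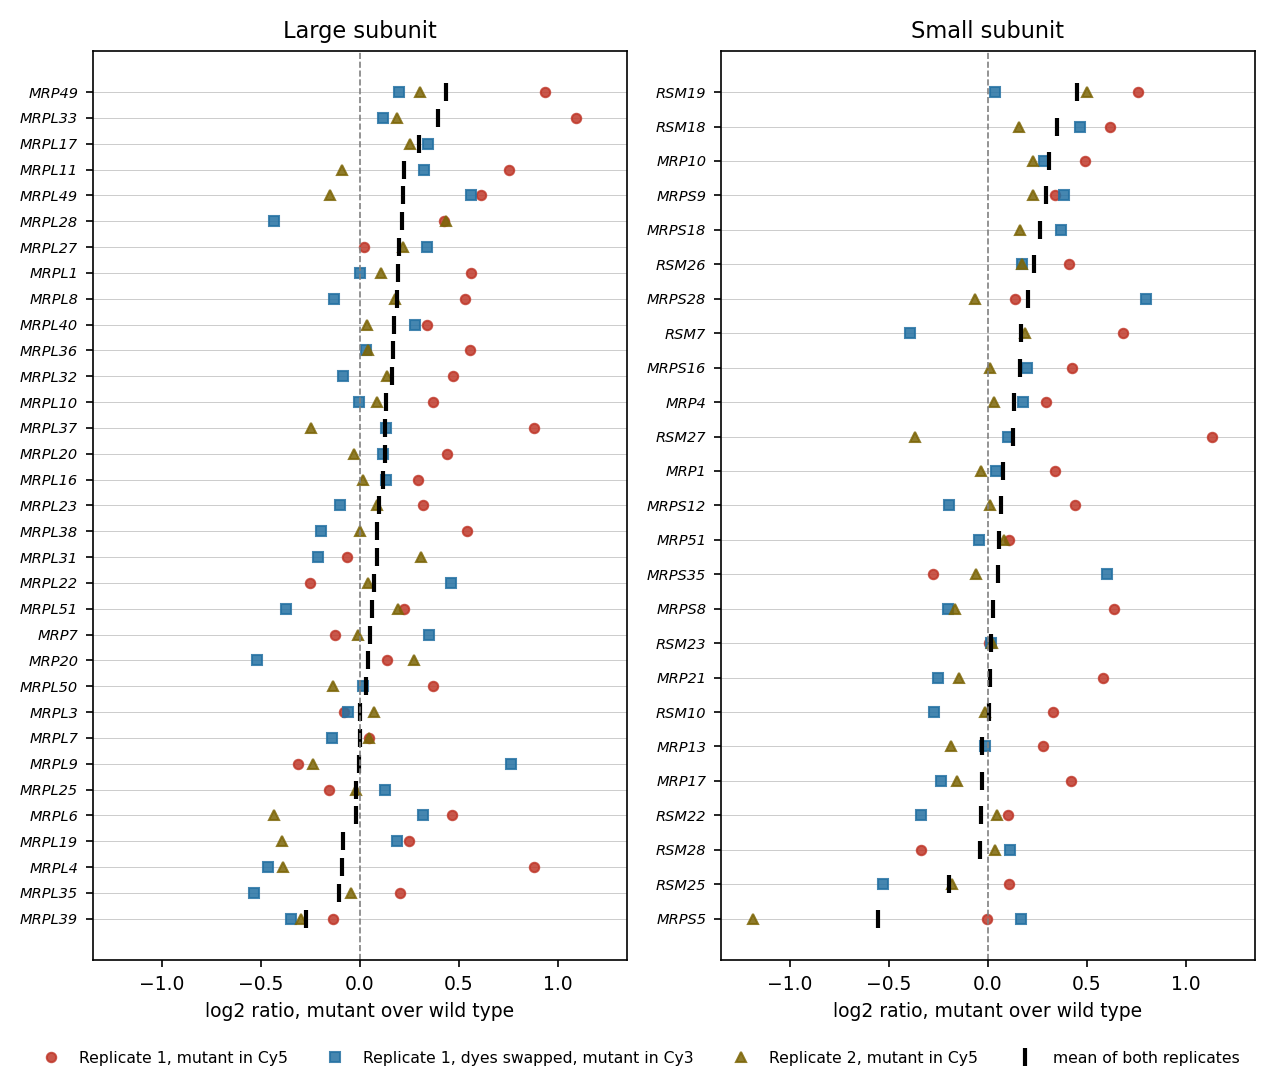
Log2 ratio of mutant over wild type (horizontal axis) of the 33 large and 25 small subunit genes measured in both replicates (vertical axis, ordered by mean), with circles for replicate 1 and mutant in Cy5, squares for the swapped array, triangles for the array labelled replicate 2 and ticks for the mean of both replicates. Circles lie to the right for most genes, from −0.34 to 1.14, while squares run from −0.53 to 0.80 and triangles from −1.19 to 0.50.

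At least 2-fold differences on a single array occurred in 3 members. On the first array RSM27 and MRPL33 exceeded 2-fold upward, 2 of 57 members (3.51%), against 3.74% of all genes, which is no larger a share than the background. No member was 2-fold lower there, against 5.14% of all genes, and on the swapped array no member was 2-fold away in either direction, against 5.52% of all genes higher and 5.02% lower. In the replicate 1 average, too, no member reached 2-fold, against 2.74% of all genes higher and 3.81% lower. RSM27 (YGR215W, mS33), a mitochondria-specific small subunit protein, was at 1.14, 0.10 and −0.37, so it was 2.20-fold higher on 1 array and below the median gene on another. On the array labelled replicate 2, MRPS5 was the 1 member at least 2-fold lower (1.69%, against 1.98% of all genes). MRPS5 (YBR251W, uS5m), a counterpart of a bacterial protein of the decoding region, was at −0.0014, 0.17 and −1.19. Both arrays of replicate 1 held it near the median gene, and its mean of −0.55 ± 0.90 (SD, n = 2, limma adjusted p = 0.925) rests on its value on 1 array. Its neighbour DUT1, named here after its value was seen, was at 1.19, 0.29 and 0.27, so the low value was not shared by that flank.

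The dye-swap pair disagreed for many members. Since replicate 1 was hybridised in both dye orientations, a gap between its arrays is not a difference between strains. The median gap, first array minus swapped array, was 0.32 for members and 0.06 for all genes. The first array was the higher one for 45 of 57 members (78.9%), against 53.3% of all genes, and the arrays lay on opposite sides of 0 for 29 of 57 (50.9%), against 43.2%. Across 57 members, which share arrays and extracts and are not replicates, Pearson's r between the arrays of the pair was −0.13 and Spearman's rho was −0.06. Across all 4258 genes r was 0.51 and rho 0.29, so the correlation over all genes was weaker by rank.

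The largest gaps were in genes of both subunits. MRPL4 (YLR439W, uL29m), a large subunit protein of the tunnel exit region, was at 0.88 with the mutant in Cy5 and −0.46 with the mutant in Cy3, a gap of 1.34, and at −0.39 on the array labelled replicate 2. RSM7 (YJR113C, uS7m), with a bacterial counterpart in the small subunit head, was at 0.69, −0.39 and 0.19. RSM27, described above, had a gap of 1.03. MRPL9 (YGR220C, uL3m), whose bacterial counterpart is among the first proteins to join the large subunit, had the opposite gap, −1.08, with values of −0.31, 0.77 and −0.24. MRPL4, RSM7 and MRPL9 changed side with the dye orientation, so their replicate 1 averages of 0.21, 0.15 and 0.23 describe neither array. Dye, spot and hybridisation were not separated for these gaps, and their part in the shift of the first array was not tested.

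**Figure D3:**
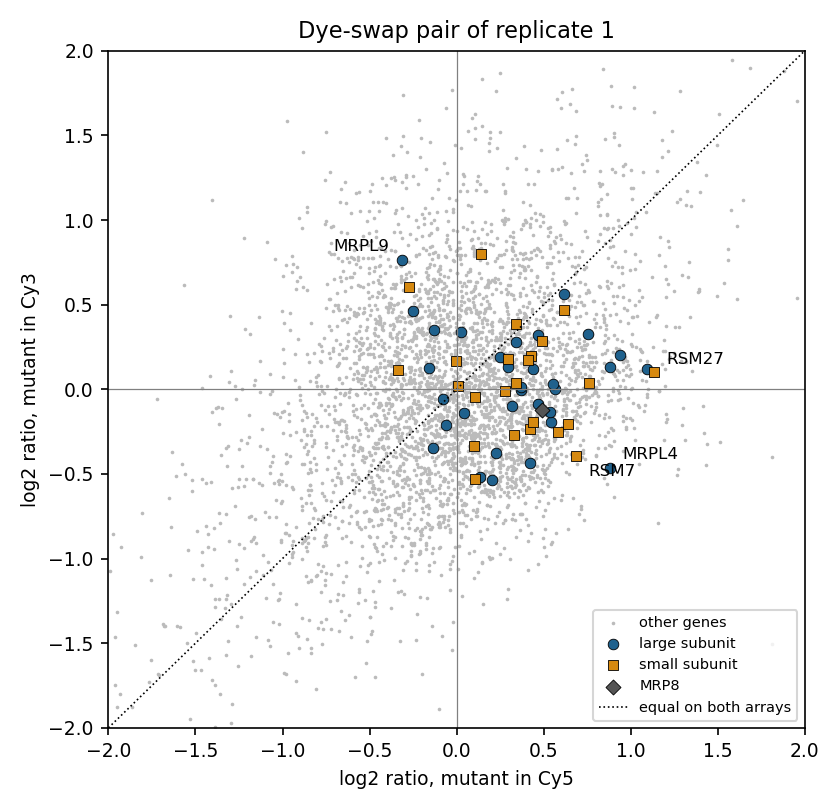
Log2 ratios of mutant over wild type on the replicate 1 array with the mutant in Cy5 (horizontal axis) and on the swapped array with the mutant in Cy3 (vertical axis), with mitochondrial ribosomal protein genes as large symbols, other genes as grey points and the dotted line where both arrays give the same value; 64 other genes lie outside the range of 2 in either direction. Most members lie to the right of 0 but around 0 on the vertical axis, and 45 of 57 lie below the dotted line.

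Between the replicate 1 average and the array labelled replicate 2, Pearson's r was 0.01 across 59 members and Spearman's rho was −0.0011. Across 4598 genes r was 0.16 and rho 0.07, both low as well. The SD between replicates was smaller for members than for genes at large, with medians of 0.15 and 0.24, and members also varied less among themselves on the first array (SD 0.34) than all genes did (0.64).

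Proteins with and without a bacterial counterpart did not part in a steady way. The 37 measured genes with a bacterial counterpart had medians of 0.40, 0.03 and 0.02 on the 3 arrays, and the 20 mitochondria-specific ones had 0.22, 0.11 and 0.03. The difference was 0.17 on the first array, −0.08 on the swapped array and −0.01 on the array labelled replicate 2. Over the replicates it averaged 0.02 ± 0.05 (SD, n = 2, exact sign-flip permutation test, two-sided p = 1), where 2 replicates cannot give less than 0.5.

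By position, members lay on 14 of 16 chromosomes, with 12 on chromosome IV and 10 on XIV as the fullest. Chromosome IX as a whole was low on both arrays of replicate 1, with medians over its 163 genes of −0.78 and −0.59, and near the median gene on the array labelled replicate 2, at −0.05. Its 1 member, RSM25 (YIL093C, mS23), a mitochondria-specific small subunit protein, was at 0.11, −0.53 and −0.18. On the first array RSM25 was thus above the median of its chromosome, on the swapped array close to it and on the array labelled replicate 2 below it. MRPS12 and RSM19 were the 1 pair of members that adjoin each other in the RefSeq gene order. MRPS12 (uS12m), singled out for that position, was at 0.44, −0.19 and 0.01, lower than RSM19 on all 3 arrays.

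For 2 members the place in the ribosome is less certain. MRP8 (YKL142W) was at 0.49, −0.12 and −0.08, and RSM22 (YKL155C), a methyltransferase-like protein linked to the small subunit, at 0.10, −0.34 and 0.05. Both gave higher values on the first array than on the swapped one, as most members did. Of the members without values in both replicates, MRP35 had a value on the array labelled replicate 2 only (0.17) and MRPL44 on the swapped array only (0.39). MRP2 and RSM24 were measured in replicate 1 only, at 0.64 and 0.13 and at 0.01 and 0.15 on the pair. MRPL13, MRPL15, MRPL24 and MRPS17 were blank on all arrays. These 8 genes enter no median or test above.

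Other components of the mitochondrial translation machinery were set beside the members from lists written from textbook knowledge. Mitochondrial ribosomal proteins with other names, such as IMG2, had medians near those of the members, at 0.44, −0.02 and 0.03 (11 of 13 measured in both replicates). IMG2 (YCR071C) was at 0.52, 0.41 and 0.43, even across arrays, with a mean of 0.45 ± 0.02 (SD, n = 2, limma adjusted p = 0.925). It was the only gene of this list with the same sign on all 3 arrays and was named for that. Gaps within the dye-swap pair ran from −0.58 to 1.12 across the list. Translation factors of the organelle (12 genes) had medians of 0.19, 0.20 and 0.03. The medians were alike in both dye orientations, but the gaps of single genes ran from −1.17 to 0.75. Members minus translation factors gave 0.15, −0.16 and −0.01, with an average over replicates of 0.01 ± 0.02 (SD, n = 2, exact sign-flip permutation test, two-sided p = 1).

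Aminoacyl-tRNA synthetases of mitochondria, which load tRNAs with amino acids (10 of 14 measured), had medians of −0.30, 0.03 and 0.15 and were thus below the median gene on the array where the members were above it. Assembly factors of the mitochondrial ribosome (11 of 12) had 0.40, 0.01 and 0.05, among them the RNA helicase MRH4 at 0.76, 0.59 and 0.22. Activators of translation of single mitochondrial mRNAs (14 of 17) had −0.10, 0.00 and −0.07, with CBP1 at 1.05, 0.24 and 0.05 and AEP1 at −1.24, −0.30 and −0.08. Genes of transcription and RNA turnover in mitochondria (7 of 8) had −0.30, 0.39 and 0.03. No gene of these 6 lists had a limma p under 0.05, adjusted or unadjusted.

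Nuclear genes of the respiratory chain and ATP synthase (34 of 41 measured), some of whose partner subunits the mitochondrial ribosome makes, had medians of 0.50, 0.27 and −0.08. On the swapped array 25 of 34 were above 0, against 49% of all genes. On the array labelled replicate 2 it was 13 of 34, against 50.1%. Within the dye-swap pair the first array was higher for 24 of 32 of them, against 53.3% of all genes. Their median gap of 0.31 was close to that of the members, 0.32. ATP2, the beta subunit of the ATP synthase, was at 0.39, 0.71 and 0.42, and COX5A, a cytochrome oxidase subunit, at 1.04, 0.43 and 0.19. Members minus respiratory genes averaged −0.07 ± 0.24 over the replicates (SD, n = 2, exact sign-flip permutation test, two-sided p = 1), a difference smaller than its spread.

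Cytosolic ribosomal protein genes shared the pattern of the first array in larger size. Their 130 measured genes had medians of 0.80, 0.01 and −0.01, the first being 1.74-fold. They were taken by symbol alone (RPL, RPP or RPS followed by a number), without a check that each protein is ribosomal. Within the dye-swap pair the first array was higher for 125 of 126 of them, against 53.3% of all genes, with a median gap of 0.78. The members' median was 0.45 below theirs on the first array and 0.03 above it on both of the others. Over the replicates the difference averaged −0.09 ± 0.16 (SD, n = 2, exact sign-flip permutation test, two-sided p = 1). In limma, 0 of the 130 passed by adjusted p. At an unadjusted p under 0.05, 1 of 130 was higher and 0 lower, against 1.39% and 3.44% of all genes.

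**Figure D4:**
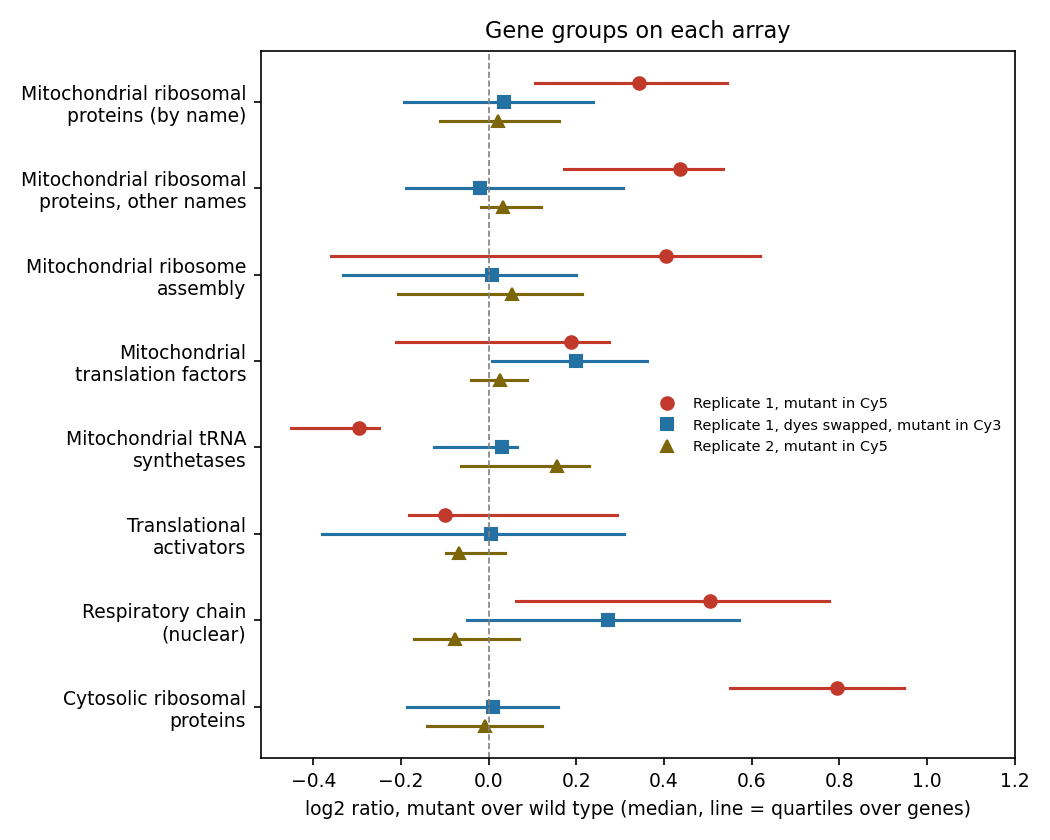
Median log2 ratio of mutant over wild type (horizontal axis, lines from the lower to the upper quartile over genes) of gene groups (vertical axis) on the 3 arrays. Mitochondrial and cytosolic ribosomal protein genes are displaced to 0.34 and 0.80 on the first array and lie within 0.04 of 0 on the other arrays, whereas respiratory genes are at 0.50 and 0.27 on the dye-swap pair.

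The 10 regulators listed for these genes had medians of −0.17, 0.04 and −0.05. Above 0 were 3, 6 and 4 of 10 on the 3 arrays, against 51.2%, 49% and 50.1% of all genes. As a list they thus lay on no common side of the median gene, while PUF3 and HAP4 were below 0 on all 3 arrays. PUF3 (YLL013C), the protein that binds transcripts of many mitochondrial ribosomal proteins, was at −0.15, −0.83 and −0.67, with a mean of −0.58 ± 0.13 (SD, n = 2). HAP4 (YKL109W), the activating subunit of the Hap complex that drives respiratory genes, was at −1.19, −0.76 and −0.33, with a mean of −0.65 ± 0.46 (SD, n = 2). HAP3, a DNA-binding subunit of that complex, was at 0.37, 0.81 and 0.24. In limma PUF3 and HAP4 had unadjusted p of 0.0368 and 0.0407 and an adjusted p of 0.925, so neither passed the test over all genes.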

How the data were processed

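Per array and gene, the authors deposited a log2 ratio. How they scanned, corrected, filtered and normalized the spots is not stated in the labels or headers. Read as log2, 100% of the ratios on each array were whole multiples of 0.001 within the rounding of the table, which settles the base. Deposited medians were 0.0229, 0.0072 and 0.0468. Since r within the dye-swap pair was 0.51 over all genes, the sign of the swapped array was kept.

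Arrays were centred on their medians, the dye-swap pair was averaged (a single value stood in where its partner was blank), and 4598 genes with both replicates were tested against 0 (limma 3.58.1, R 4.3.3, lmFit and eBayes, 1 residual and 5.15 prior degrees of freedom). Tests were two-sided, and the Benjamini-Hochberg threshold was 0.05. The procedure was tested on simulated data with 2 replicates of equal noise. In the data used here the SD over genes was 0.58 for replicate 1 and 0.34 for replicate 2, so the simulation does not match them. RefSeq (assembly R64) supplied symbols and subunits. It matched 5638 of 6212 identifiers by locus tag. Chromosomes were read from the systematic names.

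Members and lists were chosen with earlier results of these data known. Members named were, per subunit, up to 5 highest and 5 lowest with the same sign on all arrays, those at least 2-fold on any array, the 4 with the largest dye-swap gaps, MRP8, RSM22 and the member on chromosome IX. In other lists up to 3 genes with the largest mean and the same sign throughout could be named. Alternatives covered the dye-swap pair, dye, centring, scaling, prior, blanks, chromosomes and replicates.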

Additional observations from a re-analysis of the deposited data

How the results depend on the processing

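No member was called under any alternative run, while the count over all genes went from 0 to 17 with the 3 arrays taken as independent, 12 with quantile and 4 with scale normalization, 8 with centring per chromosome and 13 with replicate 1 from its swapped array alone (an alternative chosen after seeing the data). The median of the members' means, 0.09, ran from 0.02 (swapped array alone for replicate 1) to 0.20 (arrays with the mutant in Cy5 only), so its size depends on the first array. Leaving out a replicate gave 0.02 to 0.19. With centring per chromosome the members' median on the swapped array was −0.0021. The count above 0 in both replicates ran from 18 of 59 (swapped array alone) to 32 of 59 (no centring). It has no value where replicates are not averaged. The share over all genes, 26.6%, was computed for the main setting only, so the counts under alternatives have no background beside them.

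The large minus small subunit difference, 0.0266, was 0.0196 with the mutant in Cy5 only, 0.00885 with the swapped array alone, 0.0885 with a dye coefficient, 0.0309 and 0.0326 with scale and quantile normalization, 0.00055 per chromosome, 0.0189 without chromosome IX and 0.0133 by symbol. The cause was not tested. Leaving out a replicate gave 0.0261 to 0.0271.

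Of 19 members named by rule, 11 kept their sign under every alternative run. These 11 were the members named as highest or lowest in their subunit among genes with the same sign on all arrays. Averaging arrays or leaving some out cannot turn such a sign. For those alternatives the outcome was therefore fixed by the choice of genes and does not measure robustness. RSM27 turned to −0.13 (swapped array alone), −0.0832 (scale) and −0.0215 (quantile), and ran from −0.37 to 0.619 with a replicate left out. MRPL4 turned to 0.0094 (independent arrays) and 0.25 (Cy5 only), and ran from −0.389 to 0.208 with a replicate left out. MRPL9 turned to 0.0718 (independent arrays), 0.264 (swapped array alone), 0.245 (dye coefficient) and 0.0254 (no centring), and ran from −0.238 to 0.227. RSM22 turned to 0.0755 (Cy5 only), 0.00119 (scale) and 0.00301 (quantile), and ran from −0.117 to 0.0481. RSM7 turned to −0.10 and MRP8 to −0.10 (swapped array alone), and MRP8 ran from −0.0833 to 0.185 with a replicate left out. MRPS5 ran from −1.19 to 0.0832, and RSM25 at 0.18 per chromosome.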
